A study of Mus musculus with 12 samples.

Results

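The effect of deltaNp63alpha on mouse keratinocyte RNA was compared between low and high calcium, probe by probe. It used all 12 of the 12 arrays and covered 4292 of the 9558 probes on the arrays (44.9%), those with at least 2 dye-swap pairs measured at each calcium level. Of them 3381 had 1 gene symbol, for 3243 genes. Of the 4292 probes, 1327 had all 6 pairs, 1425 had 5 and 1540 had 4. The other 5266 probes lacked 2 pairs at 1 level or both and were not compared.

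The cells were primary keratinocytes from the skin of C57Bl/6NCr mice, given an adenovirus that carried deltaNp63alpha or, as the control, beta-galactosidase. The cells were grown in 0.05 mM calcium (low calcium), and for the high calcium groups the medium was raised to 0.12 mM, in each case for the 24 h before harvest. RNA was taken 41 h after transduction, 7 to 8 days after plating. All groups thus carried an adenovirus, and both RNAs of an array came from the same calcium level. Each level had 3 repeats of 2 arrays, a forward one with deltaNp63alpha in Cy5 and a reversed one with it in Cy3. Calcium itself was not measured, since no array set low against high calcium. The value of a pair is the forward minus the reversed log2 ratio, divided by 2, and is read as deltaNp63alpha over beta-galactosidase. The arrays are technical repeats by the study's design, so p-values measure only the spread between these repeats. Because each value is a ratio, the level of keratinocyte markers was not checked. In a culture, fewer cells of a type and less RNA per cell cannot be told apart.

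p63 is a transcription factor of the p53 family, and its deltaNp63alpha isoform, which lacks the N-terminal transactivation domain, is the main one in basal keratinocytes of the epidermis. Basal keratinocytes in culture proliferate at low calcium. A rise in extracellular calcium assembles cell-cell junctions, stops proliferation and starts differentiation, in which involucrin, small proline-rich proteins, late cornified envelope proteins, loricrin and filaggrin build the cornified layer. deltaNp63alpha can bind p53-type sites and repress genes there, among them the cell cycle inhibitor gene Cdkn1a.

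The direction of all values was chosen by convention and is not settled. The labels give deltaNp63alpha as the second channel in every array, so a ratio of the second over the first channel would need no turning of the reversed arrays. In that case a pair value would subtract the deltaNp63alpha effects of the pair's arrays from each other and would not measure this effect. The values were read as Cy5 over Cy3, as such ratios are usually formed, and the series title names maspin (Serpinb5) as negatively regulated, so its direction is no independent evidence. Across all compared probes the forward array and the turned reversed array of a pair were negatively correlated in every pair. The correlation was -0.07 to -0.18 in the repeats numbered 1 of both levels and in repeat 2 of high calcium. It was -0.52 to -0.70 in repeats 2 and 3 of low calcium and in repeat 3 of high calcium. With the reversed arrays left as deposited, 14 of the 158 shared effects reported below kept their call and direction. Sprr1a, for example, then had a shared effect of 0.62 and Serpinb5 of 0.36, in place of the falls given below. The Trp63 probe did not back the direction chosen. Its pair values were -0.78 and 0.45 in low calcium repeats 1 and 2 and -0.59 and -0.51 in high calcium repeats 1 and 2, and its shared effect was not called (-0.36 ± 0.18 in log2 units, SE over 4 pairs; limma adjusted p = 0.374). It was not tested whether the probe also detects RNA of the adenovirus.

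The pairs also differed among themselves. Repeat 1 of low calcium and repeats 1 and 2 of high calcium came from the first range of experiment numbers in the labels and were well filled. The other repeats, 2 and 3 of low calcium and 3 of high calcium, came from the second range and were sparser, with values for 3960, 2632 and 2152 of the 4292 probes against 4056 to 4250 in the first range. Low calcium repeat 2 stood apart. Its pair values correlated with those of the other 5 pairs at -0.09 to 0.10, over 1969 to 3924 probes. The other 10 combinations of pairs correlated at 0.21 to 0.67. Without it 108 of the 158 shared effects reported below could be tested, and 102 of them were called in the same direction. Differences that reached an unadjusted p under 0.05 and use this repeat are given with and without it.

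The median correlation was not higher within a calcium level than between levels, in a comparison that did not hold the range of experiment numbers fixed. Pairs of the same level correlated with a median of 0.26 (-0.08 to 0.49, 6 combinations) and pairs of different levels with a median of 0.31 (-0.09 to 0.67, 9 combinations). Without low calcium repeat 2 the medians were 0.33 (4 combinations) and 0.38 (6 combinations). The highest value, 0.67, was between low calcium repeat 1 and high calcium repeat 2, which share the first range. Pairs of the same range correlated with a median of 0.41 (-0.09 to 0.67, 6 combinations) and pairs of different ranges with a median of 0.30 (-0.01 to 0.44, 9 combinations). Level and range were not separated here. The points share the probes.

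**Figure D1:**
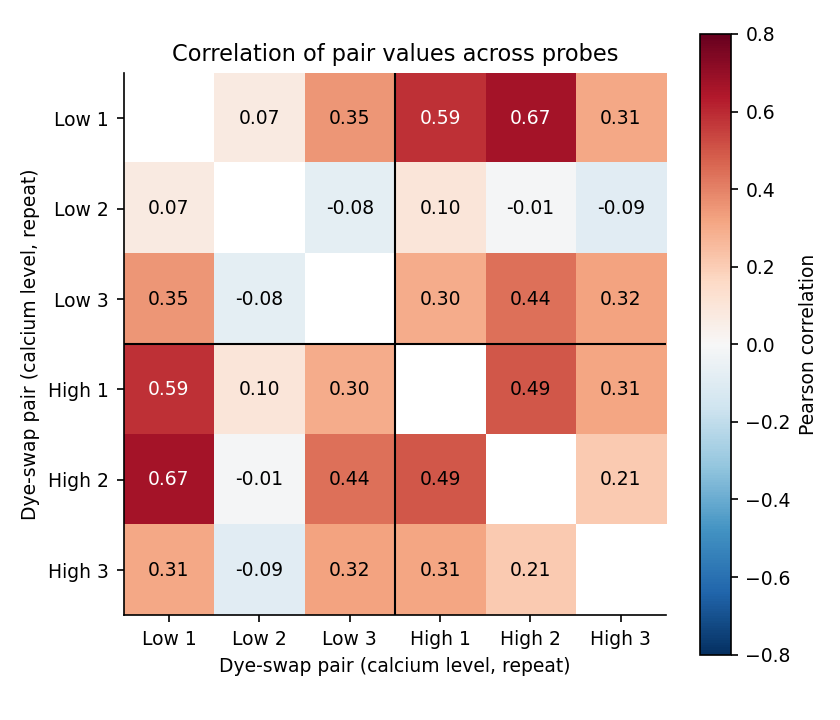
Pearson correlation of pair values (log2 ratio, deltaNp63alpha over beta-galactosidase) between the 6 dye-swap pairs, over 1743 to 4159 compared probes measured in both. Lines separate low from high calcium. The row of low calcium repeat 2 lies between -0.09 and 0.10, and low calcium repeat 1 is closest to high calcium repeat 2 (0.67).

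The shared effect, the mean of the effects at the levels, was called in 158 of 4292 probes (3.68%; limma, Benjamini-Hochberg adjusted p under 0.05). A call says that this mean differed from 0, and it can come mainly from 1 level. The shared effect was a fall in 121 probes (2.82%), which held 105 named genes, and a rise in 37 probes (0.862%), of which 24 had a symbol. Sprr1a, Flg, Serpinb2 and maspin (Serpinb5) were among the falls. With the reversed arrays left as deposited 543 of 1277 called probes were lower, and on forward arrays alone 807 of 1614, so the balance of falls over rises depended on the orientation. The difference between the levels was called in no probe. With the arrays scaled to the same spread 5 shared falls were called. With each pair left out in turn 50 to 156 shared effects were called, from 1916 to 4014 probes tested.

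The promoters of the 3 largest named falls, Sprr1a, Flg and Serpinb2, and of Serpinb5, the gene of the series title, are shown to give the sequence in front of genes with a shared fall. Each runs from 250 bases before to 50 after the start site in RefSeq (build GRCm38.p6). Serpinb2 has 2 entries there. The one shown is the upstream of the 2, and the annotated gene starts farther upstream than both. Capitals mark matches to TGANTCA, a looser form of the AP-1 motif TGACTCA, on either strand:
Sprr1a (chr3:92485832-92486131, minus strand): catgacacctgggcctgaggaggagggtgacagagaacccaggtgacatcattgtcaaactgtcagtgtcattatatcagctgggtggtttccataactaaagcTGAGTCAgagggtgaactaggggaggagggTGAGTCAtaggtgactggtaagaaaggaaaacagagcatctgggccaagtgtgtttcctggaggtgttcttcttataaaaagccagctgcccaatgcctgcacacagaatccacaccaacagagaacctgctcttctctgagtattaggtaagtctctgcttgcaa
Flg (chr3:93273296-93273595, plus strand): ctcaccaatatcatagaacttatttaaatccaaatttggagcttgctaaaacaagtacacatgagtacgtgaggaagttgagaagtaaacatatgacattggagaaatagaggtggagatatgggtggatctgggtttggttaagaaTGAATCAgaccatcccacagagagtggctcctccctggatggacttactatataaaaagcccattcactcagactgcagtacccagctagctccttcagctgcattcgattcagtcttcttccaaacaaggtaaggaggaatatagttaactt
Serpinb2 (chr1:107511173-107511472, plus strand): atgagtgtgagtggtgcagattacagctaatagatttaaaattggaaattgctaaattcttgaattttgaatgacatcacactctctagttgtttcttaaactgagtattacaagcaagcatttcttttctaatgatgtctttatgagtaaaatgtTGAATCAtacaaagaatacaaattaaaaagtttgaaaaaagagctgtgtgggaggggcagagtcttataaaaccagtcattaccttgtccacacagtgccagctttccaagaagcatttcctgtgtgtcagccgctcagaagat
Serpinb5 (chr1:106860925-106861224, plus strand): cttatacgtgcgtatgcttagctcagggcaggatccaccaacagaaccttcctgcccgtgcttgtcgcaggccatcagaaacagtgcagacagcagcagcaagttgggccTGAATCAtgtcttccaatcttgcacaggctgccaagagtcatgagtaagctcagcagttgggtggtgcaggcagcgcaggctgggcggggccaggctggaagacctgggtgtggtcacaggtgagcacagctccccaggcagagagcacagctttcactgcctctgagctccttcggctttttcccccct

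All 4 hold a match to TGANTCA. The 2 matches in Sprr1a also fit TGACTCA, on the opposite strand, and the matches in Flg, Serpinb2 and Serpinb5 do not. None of the 4 windows holds the p53 family half-site by its standard consensus. Over all genes in RefSeq, 8.97% of 27025 genes had a TGANTCA match in a window of this length. The share was 7.11% of the 2547 compared genes with an entry, 13.3% of 83 genes with a shared fall (11 genes) and 4.76% of 21 genes with a shared rise (1 gene). The half-site was found in 9.55% of all genes, 7.97% of the compared genes, 9.64% of those that fell (8 genes) and 14.3% of those that rose (3 genes). These counts describe letters in a window and were not tested.

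Sprr1a, a small proline-rich precursor of the cornified envelope, had the largest shared fall of a named gene. Its pair values were -1.51, -2.13 and -2.82 in low calcium and -1.46 and -1.81 in high calcium, where repeat 3 was not measured. All 5 pairs were below 0 and the levels overlapped. The shared effect was a 3.72-fold fall (-1.89 ± 0.16 in log2 units, SE over 5 pairs; limma adjusted p = 4.03e-05). The difference, high minus low calcium, was 0.52 (95% interval -0.17 to 1.21), so a stronger fall at either level of up to these sizes was not distinguished from none.

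Flg, which encodes filaggrin, the protein that bundles keratin filaments in the cornified layer, read -1.02, -1.0 and -2.52 in low calcium and -1.01, -1.13 and -3.63 in high calcium. The levels overlapped, and the lowest values at both levels were those of repeat 3. The shared fall was 3.29-fold (-1.72 ± 0.27 in log2 units, SE over 6 pairs; limma adjusted p = 0.00187) and the difference -0.41 (95% interval -1.57 to 0.74), the widest interval among the 158 shared effects. Within the first range of experiment numbers the difference was -0.05, and within the second it was -1.88.

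The values of the late cornified envelope genes Lce1m and Lce1l overlapped between the levels. Lce1m read -0.80 and -2.04 in low calcium repeats 1 and 2 and -0.48, -0.88 and -2.54 in high calcium. Its shared fall was 2.57-fold (-1.36 ± 0.24 in log2 units, SE over 5 pairs; limma adjusted p = 0.00469), with a difference of 0.12 (95% interval -0.91 to 1.15). Lce1l read -0.89, -0.87 and -1.74 in low calcium and -0.17, -0.73 and -2.28 in high calcium. It fell 2.17-fold (-1.11 ± 0.20 in log2 units, SE over 6 pairs; limma adjusted p = 0.00469). In both genes the most negative high calcium value was that of repeat 3, in the sparse range.

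Of the 8 measured genes of the terminal differentiation list, 4 fell as a shared effect, where 2.82% of all compared probes did: Sprr1a, Flg, Klk5 and Lce1m. The median shared effect of the 8 was -0.90, against 0.04 over all compared probes, with level medians of -0.70 in low and -0.90 in high calcium. The other 4 did not pass. Lor, the loricrin gene, read 0.13, -0.29 and 0.16 in low calcium and 0.20, 0.16 and -0.82 in high calcium, and its levels overlapped. The level means were -0.46 and -0.51 in Klk8, a protease gene of the upper epidermis, and 0.13 and -0.21 in Tgm3, a transglutaminase gene. Ppl, the periplakin gene, is described with the differences below.

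Klk5, a serine protease of desquamation, was both a shared fall and 1 of 8 shared effects with an unadjusted difference p under 0.05. It read -0.90, -0.25 and -1.67 in low calcium and -1.44 and -1.93 in high calcium. The levels overlapped, since low calcium repeat 3 lay between the high calcium values. The shared fall was 2.49-fold (-1.31 ± 0.17 in log2 units, SE over 5 pairs; limma adjusted p = 0.000629). The difference was -0.75 (95% interval -1.49 to -0.01) and was not called after adjustment. Without low calcium repeat 2, the highest of its pairs, the difference was -0.40.

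Among the serpins, Serpinb2 and Serpinb5 fell. Serpinb2, an inhibitor of plasminogen activators, read -1.82, -1.10 and -1.31 in low calcium and -1.82 and -1.32 in high calcium. The levels overlapped. The shared fall was 2.81-fold (-1.49 ± 0.14 in log2 units, SE over 5 pairs; limma adjusted p = 5.19e-05) and the difference -0.16 (95% interval -0.75 to 0.42).

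Serpinb5, the gene of maspin, read -1.02, -0.50 and -0.89 in low calcium and -0.79 and -0.99 in high calcium, with overlapping levels. The shared fall was 1.80-fold (-0.84 ± 0.12 in log2 units, SE over 5 pairs; limma adjusted p = 0.00158). The difference was -0.08 (95% interval -0.62 to 0.45), an interval that covers only the spread between these 5 pairs. High calcium repeat 3 had no pair value, and its forward array alone read 1.47. In low calcium repeat 3 the forward and turned reversed arrays disagreed in sign (0.56 and -2.33). Of the 10 measured serpins, 2 fell and none rose, against 2.82% and 0.862% of all compared probes, and the list's median shared effect was 0.06, against 0.04. Serpinb8 was the only serpin with a difference at an unadjusted p under 0.05 (-0.61, and -0.55 without low calcium repeat 2), where 2.42% of all compared probes had one below 0. Serping1 had a difference of -1.34 (95% interval -2.78 to 0.11), which rests on high calcium repeat 3 at -3.23 against -0.29 to 0.29 in its other 4 pairs.

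Among the p53 family and its targets, 5 of 18 measured genes fell and none rose, against 2.82% and 0.862% of all compared probes. The median shared effect was -0.36, against 0.04 over all compared probes. Cdkn1a, the gene of the cell cycle inhibitor p21, read -0.86 and -0.60 in low calcium repeats 1 and 2 and -1.04 and -1.54 in high calcium repeats 1 and 2. All high calcium values lay below all low calcium values. The pair values of the levels did not overlap in 15.9% of all compared probes, a share that pools probes with 4 to 6 pairs. With only 4 pairs, as in Cdkn1a, a lack of overlap arises more easily, so this share is no like background. The shared fall was 2.02-fold (-1.01 ± 0.14 in log2 units, SE over 4 pairs; limma adjusted p = 0.00135) and the difference -0.56 (95% interval -1.17 to 0.05).

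Plk2, a kinase gene induced by p53, had a shared effect of -0.66 (limma adjusted p = 0.0103), and Mdm2, the ubiquitin ligase that degrades p53, of -0.51 (limma adjusted p = 0.0414). The difference was 0.20 in Plk2 and near 0 in Mdm2. Thbs1, which encodes a matrix glycoprotein, read -1.58, -0.83 and -0.89 in low calcium and -0.91 and -1.88 in high calcium. It fell 2.37-fold (-1.25 ± 0.16 in log2 units, SE over 5 pairs; limma adjusted p = 0.000509), and the levels overlapped. Trp73, a family member named in the series title as p73, lay between 0.13 and 0.27 in all 5 measured pairs. Its shared effect of 0.20 ± 0.11 (SE, n = 5 pairs) was not called (limma adjusted p = 0.455).

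Some basal keratinocyte and adhesion genes fell as a shared effect. Of 12 measured basal genes, 4 fell, against 2.82% of all compared probes: Cav1, Sdc1, Itgb1 and Cdh3. The median shared effect of the 12 was -0.30, against 0.04 over all compared probes, and 8 of the 12 were below 0. Those above 0 were Tfap2c (0.43), Egfr (0.12), Igf1r (0.10) and Bnc1 (0.05), none of them called. Itgb1, the beta-1 integrin subunit that anchors basal cells to the matrix, read -1.58, -0.86 and -1.30 in low calcium and -0.87, -1.39 and -0.52 in high calcium. The levels overlapped, with a shared fall of 2.12-fold (-1.09 ± 0.13 in log2 units, SE over 6 pairs; limma adjusted p = 0.000239) and a difference of 0.32 (95% interval -0.23 to 0.87). It differed in the same direction within the first range (0.45) and the second (0.56).

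Cav1, the main protein of caveolae, read -1.53, -0.78 and -1.20 in low calcium and -0.73 and -1.99 in high calcium, a shared fall of 2.40-fold (limma adjusted p = 0.000739). Sdc1, a heparan sulfate proteoglycan gene, read -1.0 and -1.44 in low and -0.85 and -1.24 in high calcium, a shared fall of 2.19-fold (limma adjusted p = 0.000629). The levels overlapped in both genes. Among 8 junction genes, 2 fell, against the same 2.82%. These were Cdh3 (P-cadherin), at level means of -0.64 and -0.52, and Ctnna1 (alpha-catenin, which links cadherins to actin), at -0.47 and -0.50. The junctions they belong to are assembled by calcium, and the differences were 0.12 (95% interval -0.45 to 0.68) in Cdh3 and -0.03 (95% interval -0.49 to 0.42) in Ctnna1. Krt5, the basal keratin, read -0.39 and -0.09 in low and -0.28 and 0.50 in high calcium repeats 2 and 3 and was not called.

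Genes of calcium signalling and calcium binding were measured with 26 probes. Of these, 5 fell as a shared effect, against 2.82% of all compared probes, and none rose. None had a difference at an unadjusted p under 0.05, where 2.91% of all compared probes did. In a list of this size a count of 0 is near that share and is no result about it. The median difference over the 26 was -0.01. In 24 the 95% interval of the difference lay within 1 log2 unit of 0, as in 86.8% of all compared probes. Anxa1, a calcium-dependent membrane binding annexin, read -0.84, -1.0 and -1.05 in low calcium and -1.02, -0.96 and -1.71 in high calcium. It fell 2.14-fold (-1.10 ± 0.12 in log2 units, SE over 6 pairs; limma adjusted p = 8.58e-05), and the levels overlapped.

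S100a6 and S100a9 encode small EF-hand calcium binding proteins. S100a6 read -0.97 and -1.02 in low and -0.51 and -0.67 in high calcium, without overlap, with a shared fall of 1.73-fold (limma adjusted p = 0.00395). S100a9 read -0.74 and -0.61 in low and -0.49 and -0.83 in high calcium, with a shared fall of 1.59-fold (limma adjusted p = 0.0146) and a difference of 0.01 (95% interval -0.57 to 0.59). Camk2d, a calmodulin-dependent kinase gene, fell with a shared effect of -0.46 (limma adjusted p = 0.0339). One Anxa2 probe fell (-0.60, limma adjusted p = 0.0189) and the other read 0.19 and was not called, so probes of this gene disagreed.

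In other lists, 1 of 11 probes of AP-1 and immediate early genes fell, 2 of 16 of matrix and protease genes, 2 of 7 of hair follicle genes and 1 of 7 of muscle genes, where 2.82% of all compared probes fell. In lists this small a share of 2.82% is less than 1 probe, so a count of 1 is near it. Klf6, an immediate early transcription factor gene, fell in 1 probe (-0.70, limma adjusted p = 0.00422), and its other probe read 0.10. Myc, of the same list, had a difference of -0.51 at an unadjusted p under 0.05, and of -0.30 without low calcium repeat 2. Tnc, the matrix protein tenascin-C, read -0.67, -0.58 and -0.34 in low and -0.79, -0.99 and -0.11 in high calcium (shared effect -0.58, limma adjusted p = 0.0149). The other members called were the hair keratins Krt34 (-0.46) and Krt71 (-0.65), the skeletal actin gene Acta1 (-0.85) and the matrix gene Thbs1. Thbs1 is also in the p53 list and was counted there above. The 7 muscle probes had a median difference of -0.49. Only Des, the desmin gene, had a difference at an unadjusted p under 0.05, where 2.42% of all compared probes had one below 0. Its level means were 0.49 and -0.45, a difference of -0.94, and of -1.03 without low calcium repeat 2. Gsdmc2, a gasdermin gene, is in no list and had a shared fall of 2.28-fold (limma adjusted p = 0.00469), with -2.93 in high calcium repeat 3 against -0.41 to -1.26 in its other 5 pairs.

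No probe was called in the lists for cornified layer lipids (11 probes), Notch (8), EGFR ligands (4), DNA replication (12), mitosis (19), cytosolic ribosomal proteins (16) or oxidative phosphorylation (20), and none of these had a difference at an unadjusted p under 0.05. Over all compared probes 3.68% had a shared call and 2.91% such a difference, so in lists of this size a count of 0 is near the background and is no result about them. In all 16 ribosomal and all 20 oxidative phosphorylation probes the interval of the difference lay within 1 log2 unit of 0, against 86.8% of all compared probes. Markers of fibroblasts (5 probes), melanocytes (2), immune cells (6) and endothelium (7) had no shared call and no such difference. Their median shared effects were -0.01, 0.17, 0.03 and 0.10. Red blood cell markers had no compared probe.

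Usp19, a deubiquitinase gene, had the largest rise of a named gene. It read 2.09, 0.71 and 1.04 in low calcium and 1.77, 1.00 and 2.88 in high calcium, a shared rise of 2.99-fold (1.58 ± 0.20 in log2 units, SE over 6 pairs; limma adjusted p = 0.000452). Its levels overlapped. The difference was 0.60 (95% interval -0.25 to 1.45). It was -0.71 within the first range of experiment numbers and 2.00 within the second, so its sign depended on the range.

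A830082K12Rik (2.48-fold), Lima1 (2.38-fold), Brip1os (2.30-fold), Aven (2.12-fold), Ergic2 (2.04-fold), Slc17a5 (1.72-fold) and Herc4 (1.71-fold) also rose. Lima1 encodes an actin-binding protein, Aven an inhibitor of apoptosis, Slc17a5 a lysosomal sialic acid transporter and Herc4 a ubiquitin ligase. In all of the 8 except Herc4, low calcium repeat 1 read 1.36 or more and high calcium repeat 2 read 1.00 or less. A second probe of Brip1os rose as well (1.2), whereas second probes of Ergic2 (0.05) and Herc4 (-0.22) were not called. In the interferon and antigen presentation list 1 of 8 rose, against 0.862% of all compared probes. A count of 1 in a list this small is no result about the list. The gene was Tap1, a peptide transporter gene, at 0.62 and 1.41 in low and 0.53 and 0.50 in high calcium (shared rise of 1.70-fold, limma adjusted p = 0.0125).

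**Figure D2:**
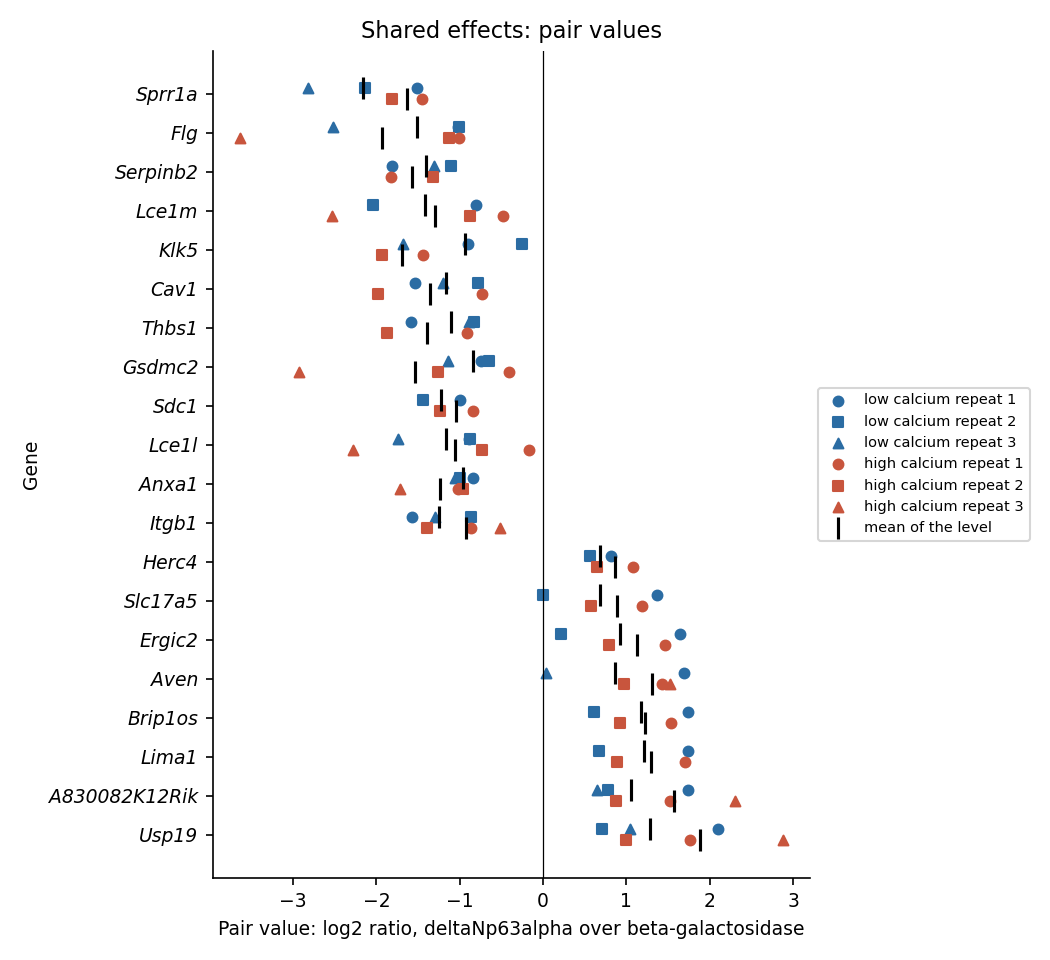
Pair values (log2 ratio, deltaNp63alpha over beta-galactosidase) of the 12 largest falls and 8 largest rises among named shared effects with 1 sign in every measured pair. Blue marks are low calcium and red marks high calcium, with shape for the repeat and black bars for level means. In all 20 genes the values of the levels overlap.

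Over the 121 falls the median level mean was -0.61 in low and -0.68 in high calcium, and over the 37 rises 0.75 and 0.88. All measured pairs had the sign of the shared effect in 103 of 121 falls and 33 of 37 rises, which were called on these pairs. On single arrays the agreement was lower, since every measured array had that sign in 20 of the 121 falls and 6 of the 37 rises. The effect was larger in high calcium in 96 of 158 probes, with a median difference of -0.04 over the falls and 0.08 over the rises. Tested level by level, 23 of 4810 probes were called in low calcium (0.478%) and 142 of 7682 in high calcium (1.85%). Of the 158 shared effects, 13 were called at both levels, 39 in high calcium alone, 8 in low calcium alone and 98 at neither. A call at 1 level alone did not show a difference, since the difference itself was called in none of them.

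The precision bounds what a missing call means. The 95% interval of the difference reached a median of 0.59 log2 units to each side over the 158 probes (0.43 to 1.15). It lay within 1 log2 unit of 0 in 115 of the 158, against 3726 of all 4292 probes (86.8%). In the others the interval reached a difference of 2-fold or more.

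Effects chosen at 1 level were then read at the other, in arrays the choice did not use. In high calcium 26 probes fell by at least 1 log2 unit with the same sign in every pair. In low calcium repeat 1 all 26 were below 0 (median -1.0), in repeat 2 it was 19 of 26 (median -0.62) and in repeat 3 all 15 measured (median -1.05). Over all compared probes, 35.9%, 53% and 53.6% were below 0 in these pairs. Of 14 probes that rose by at least 1 in high calcium, 14 of 14, 12 of 13 and 6 of 8 were above 0 in low calcium repeats 1, 2 and 3, where 64.1%, 47.0% and 46.4% of all probes were.

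In the other direction, 12 probes fell by at least 1 in low calcium. All 12 were below 0 in high calcium repeats 1 and 2 and all 4 measured in repeat 3, with medians of -0.79, -1.19 and -2.41. The share below 0 over all probes was 43.7%, 41.7% and 46.5%. Of 11 probes that rose by at least 1 in low calcium, 11 of 11, 10 of 11 and 4 of 5 were above 0 in the high calcium repeats, against 56.3%, 58.2% and 53.5% of all probes. Effects of this size at 1 level thus mostly had the same sign at the other, with low calcium repeat 2 the least so for the falls.

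**Figure D3:**
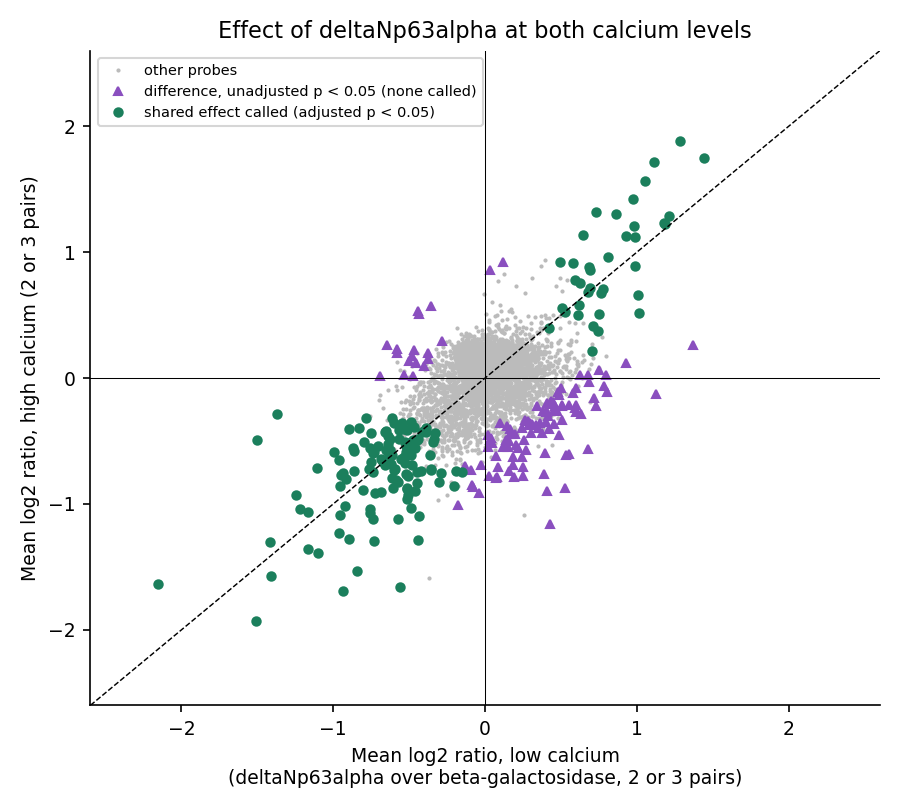
Mean log2 ratio (deltaNp63alpha over beta-galactosidase) in high calcium against low calcium for the 4292 compared probes. Green circles are the 158 called shared effects, which lie along the diagonal in the lower left and upper right; purple triangles are other probes with an unadjusted difference p under 0.05, of which none was called.

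The difference, high minus low calcium, was called in 0 of 4292 probes (0.0%; limma, Benjamini-Hochberg). The smallest adjusted p was 0.647 and the largest size 1.59. At an unadjusted p under 0.05 there were 125 probes (2.91%). Of these, 104 (2.42%) were below 0, with the deltaNp63alpha ratio lower in high calcium, and 21 (0.489%) above 0. These probes lean to a level and are given as a description. The levels did not overlap in 88 of the 104 and 18 of the 21, against 15.9% of all compared probes, and the level means had opposite signs in 85 and 17. Choosing probes by their difference between the levels favours both traits, so these counts are no evidence for a difference.

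The lean below 0 moved with low calcium repeat 2. In 91 of the 103 probes measured there, that repeat lay farther from the high calcium mean than the other low calcium pairs, as it did in 76.1% of all compared probes. Without it the median difference of the 104 went from -0.73 to -0.52, and 103 kept their sign. The fit without it had 54 of 2537 probes at an unadjusted p under 0.05. Of the 41 probes measured in both ranges of experiment numbers, 39 were below 0 in each, and of 12 such probes in the group above 0 all 12 were above 0 in each. Over all compared probes measured in both ranges, 48.6% of 2078 had 1 sign in both. These probes were chosen on the same values, so these counts are a description.

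Il33, an alarmin of the interleukin-1 family that keratinocytes hold in the nucleus, had the smallest p. It read -0.02 and 0.88 in low calcium repeats 1 and 2 and -0.93 and -1.39 in high calcium repeats 1 and 2. Each low calcium value averaged a forward array below 0 and a turned reversed array above 0, at -0.73 and 2.48 in repeat 2. The levels did not overlap. The difference was -1.59 (95% interval -2.29 to -0.89), with an unadjusted limma p of 0.000266 and an adjusted p of 0.647. Without low calcium repeat 2 it was -1.14, and with the reversed arrays left as deposited it turned to 0.98. In that reading 12 of the 53 named differences turned, among them those of Cyp2b19 (1.59) and Defb1 (0.42).

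Defb1, a beta-defensin gene of epithelial defence, read -1.17 and 0.04 in low calcium repeats 1 and 2 and -1.69, -1.68 and -1.61 in high calcium. The high calcium pairs lay close together and below both low calcium pairs. Single arrays were less clear. Low calcium repeat 3 had no pair value, but its turned reversed array alone read -2.20, below every high calcium pair value. High calcium repeat 3 averaged a forward array at -0.71 and a turned reversed array at -2.52. It was called as a shared fall of 2.16-fold (-1.11 ± 0.15 in log2 units, SE over 5 pairs; limma adjusted p = 0.000945). Its high calcium effect was called on its own (limma adjusted p = 0.00154) and its low calcium effect was not (limma adjusted p = 0.423). The difference was -1.10 (95% interval -1.76 to -0.44) and not called (limma adjusted p = 0.979). It was -0.49 without low calcium repeat 2. In the list of inflammation and epithelial defence, 2 of 12 probes had a difference below 0 at an unadjusted p under 0.05, Il33 and Defb1. Over all compared probes 2.42% did, and the median difference of the list was -0.02.

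Cyp2b19, a keratinocyte cytochrome P450 gene of the suprabasal layers, read 0.24 and 0.14 in low and -0.64 and -0.94 in high calcium repeats 1 and 2, a difference of -0.98 (95% interval -1.56 to -0.40). Here low calcium repeat 2 was the nearer to the high values, and without it the difference was -1.03. Both low calcium values of Cyp2b19 averaged arrays of opposite sign. The forward and turned reversed arrays read -1.03 and 1.51 in repeat 1, and -2.36 and 2.64 in repeat 2. On forward arrays alone the difference of Cyp2b19 had the opposite sign. Ppl, which encodes periplakin, read 0.43 and 0.55 in low and 0.12, 0.12 and -0.65 in high calcium, a difference of -0.62 (-0.56 without low calcium repeat 2). With Klk5, 2 of the 8 terminal differentiation genes had a difference below 0 at an unadjusted p under 0.05, against 2.42% of all compared probes. Neither was called.

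The other named probes below 0 were Manba, a lysosomal mannosidase gene (level means 0.41 and -0.89), Nat8l, an N-acetylaspartate synthase gene (0.53 and -0.88), Rhbdd2 (0.25 and -0.78), Jcad, of endothelial junctions (0.25 and -0.71), Hp1bp3, a chromatin protein gene (0.68 and -0.56) and Zfp871 (0.73 and -0.23). In all 6 the levels did not overlap. Their differences were -1.30 in Manba, -1.40 in Nat8l, -1.03 in Rhbdd2, -0.96 in Jcad, -1.24 in Hp1bp3 and -0.95 in Zfp871. Without low calcium repeat 2 they were -1.02, -0.91, -0.88, -0.93, -1.09 and -0.91. In that repeat the forward array was below 0 and the turned reversed array above 0 in all 6, at -1.34 and 2.72 in Manba. Jcad read 0.22 and 0.28 in low and -0.60, -0.91 and -0.61 in high calcium, and its difference was -0.98 in the first range and -0.90 in the second. A second Zfp871 probe had a difference of 0.07, so probes of that gene disagreed.

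Above 0, where the deltaNp63alpha ratio was higher in high calcium, Krt32, a hair keratin gene, had the smallest p. It read -0.45, -0.34 and -0.52 in low calcium and 0.43 and 0.58 in high calcium repeats 1 and 3. The levels did not overlap, and the difference was 0.94 (95% interval 0.44 to 1.44; limma adjusted p = 0.647). It was 0.88 in the first range and 1.01 in the second, and 0.99 without low calcium repeat 2. Low calcium repeats 1 and 2 averaged arrays of opposite sign. The forward and turned reversed arrays read -1.31 and 0.41 in repeat 1, and 0.29 and -0.96 in repeat 2. In each of the other measured pairs of Krt32 both arrays had 1 sign.

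Irf7, a transcription factor gene of the interferon response, read -0.04 and -0.85 in low calcium repeats 1 and 3 and 0.26, 0.21 and 1.13 in high calcium, a difference of 0.98 (95% interval 0.29 to 1.66). The difference was 0.28 within the first range of experiment numbers and 1.98 within the second. In repeat 3 the forward and turned reversed arrays had opposite signs, at -2.35 and 0.65 in low and -0.02 and 2.28 in high calcium. The remaining probes named here were Odf2l (0.91), Rab34, a small GTPase gene (0.93), Gm4788 (0.81), Spdef, an ETS factor gene (0.78), and Cap1, of actin turnover (0.69). Without low calcium repeat 2 the difference was 0.76 in Odf2l, 0.61 in Rab34, 0.44 in Spdef and 0.61 in Cap1, and Gm4788 and Irf7 had no value in that repeat. In Spdef and Rab34 it was the lower of the 2 low calcium pairs, at -0.93 against -0.24 and at -0.68 against -0.04. In that repeat the forward array was below 0 and the turned reversed array above 0 in Odf2l, Spdef and Cap1. They read -2.125 and 0.53, -2.18 and 0.33, and -2.62 and 1.51. Both arrays were below 0 in Rab34. Both low calcium pairs of Gm4788 averaged arrays of opposite sign as well. Second probes did not lean the same way. The other Cap1 probe had a difference of 0.08 and was itself a shared fall (-0.52, limma adjusted p = 0.0323), and the other Gm4788 probe had a difference of -0.20.

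Of the 8 shared effects with an unadjusted difference p under 0.05, 6 were falls with the lower ratio in high calcium. Besides Klk5 and Defb1 these were Sptssa, Aldh3b2, Kif21a and Cdkl2. Sptssa, a subunit of the enzyme that starts sphingolipid synthesis, read -0.86, 0.07 and -0.53 in low and -1.25, -1.47 and -1.13 in high calcium, a difference of -0.84 (95% interval -1.37 to -0.32), and -0.59 without low calcium repeat 2. Aldh3b2, an aldehyde dehydrogenase gene, had level means of -0.20 and -0.86, Kif21a, a kinesin gene, of -0.19 and -0.74, and Cdkl2, a kinase gene, of -0.15 and -0.75. Their differences were -0.66, -0.54 and -0.59, and -0.46, -0.55 and -0.34 without low calcium repeat 2. The levels overlapped in Klk5 and not in the other 5.

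The other 2 of the 8, Sh3bp5l and Trex2, had the lower ratio in low calcium. Sh3bp5l read -0.51, -1.48 and -2.12 in low and -0.36 and -0.22 in high calcium, without overlap. Its shared fall was 1.78-fold (-0.83 ± 0.18 in log2 units, SE over 5 pairs; limma adjusted p = 0.02) and its difference 1.08 (95% interval 0.31 to 1.85; 1.03 without low calcium repeat 2), but 0.22 within the first range of experiment numbers. Trex2, a keratinocyte exonuclease gene, read -0.78 and -2.23 in low calcium repeats 1 and 3 and -0.45 and -0.54 in high calcium, a difference of 1.01 (95% interval 0.19 to 1.83). In both genes the difference rested on the sparse low calcium repeats. Neither difference was called.

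**Figure D4:**
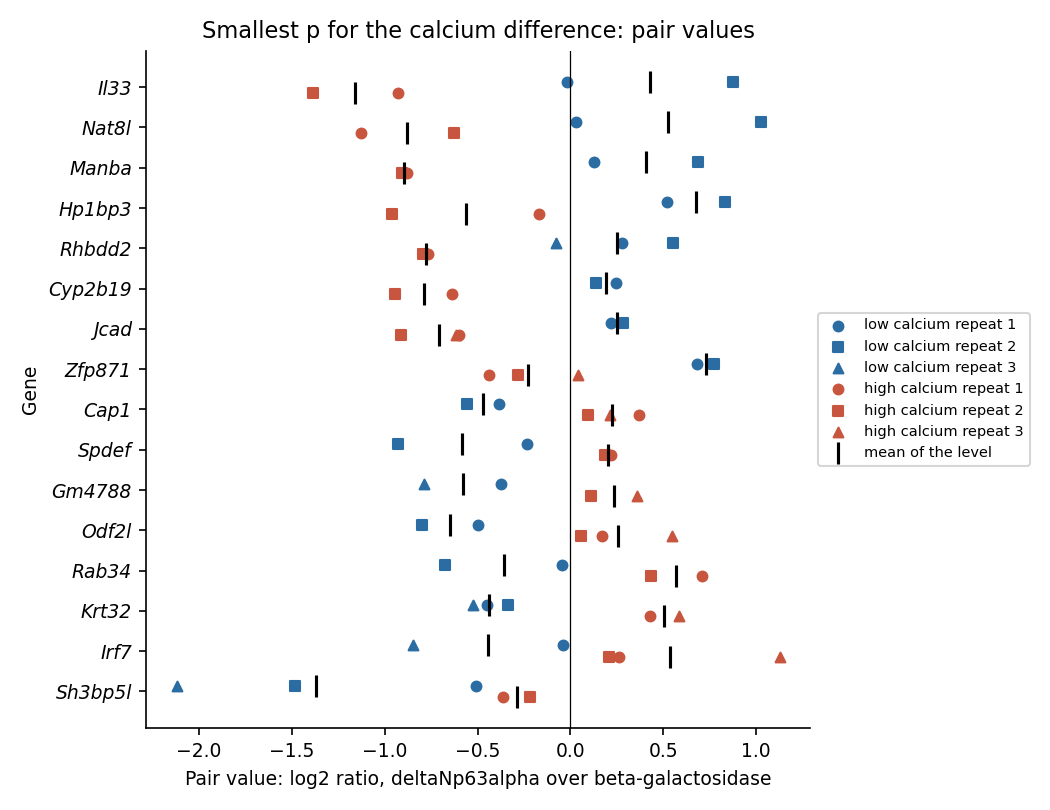
Pair values (log2 ratio, deltaNp63alpha over beta-galactosidase) of the 8 named genes of smallest p for the calcium difference in each direction, with low calcium in blue, high calcium in red, shape for the repeat and black bars for level means. The levels do not overlap in any of the 16, by the choice of these genes, and low calcium repeat 2 (blue squares) is often the outermost low calcium value.

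**Figure D5:**
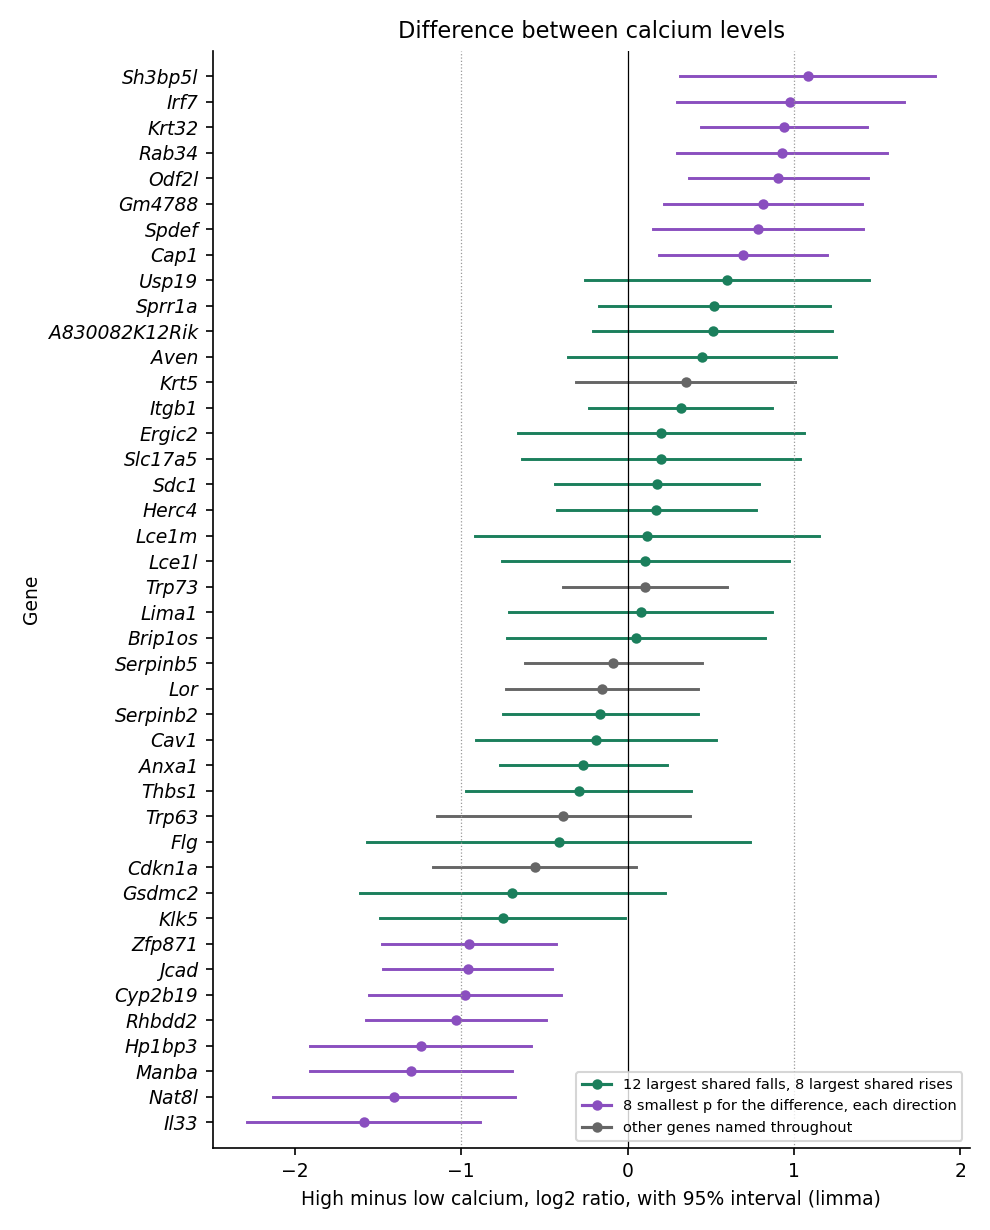
Difference between the levels, high minus low calcium (log2 ratio), with 95% interval from limma for the named shared effects (green), the genes of smallest difference p (purple) and other genes named throughout (grey). Dotted lines mark 1 log2 unit. The intervals of 19 of the 20 green genes include 0, Klk5 being the exception (-1.49 to -0.01), and no difference passed adjustment.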

How the data were processed

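Relative RNA levels were measured on 12 two-colour spotted cDNA arrays, from TRIzol RNA and a Genisphere labelling kit, as the labels' protocols state. Values were deposited as log ratios of the 2 dyes, taken as log2 from their range. Not given in the sources used here: log base, numerator dye, scanner, normalisation and spot filter. Array medians were within 0.0005 of 0 before each array was centred on its median. No value column lacked a sample.

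A dye-swap pair counted as 1 replicate and needed both arrays. Pairs of both levels were fitted together with limma 3.58.1 in R 4.3.3, checked on simulated data (where false calls in some draws exceeded the share aimed at, most in a draw in which limma estimated 1 spread for all probes), with Benjamini-Hochberg adjustment over all probes tested. The number of arrays limits the precision. Probe names come from the platform annotation (7457 probes with 1 symbol, 481 with several, 1620 with none); 7368 matched a gene ID of GRCm38.p6.

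Members and gene lists were chosen with earlier results of these data known. Named genes are the 12 largest falls and 8 largest rises with 1 sign in every pair, the 8 smallest difference p per direction, up to 3 called members per list and 8 fixed genes, of which Krt10 lacked the pairs. Klk8, Tgm3, Ppl, Des, Myc, Serpinb8, Serping1, Camk2d, Anxa2, Plk2, Mdm2, Trex2, Sptssa, Aldh3b2, Kif21a, Cdkl2 and second probes of named genes were named outside this rule, after their values were seen. Alternatives covered orientation, centring, scaling, single arrays, gene averages, variance, missing pairs, blocks and each left-out pair.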

Additional observations from a re-analysis of the deposited data

Results flagged for a closer look

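Of 53 named probes, 3 had a pair value far from the other pairs by Dixon's test, which flags about 1 in 20 such groups by chance. Gsdmc2 read -2.932 in high calcium repeat 3, against -0.41 to -1.26 in its other 5 pairs. Anxa1 read -1.711 in the same repeat, against -0.84 to -1.05 in the others. Tap1 read 1.407 in low calcium repeat 2, against 0.50 to 0.62 in its other 3 pairs. Both falls kept their sign in all 6 pairs and the rise of Tap1 in all 4.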

How the results depend on the processing

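Call counts depended strongly on the processing. The counts were 158 for the shared effect, 0 for the difference, 23 for low and 142 for high calcium (limma). With reversed arrays kept as deposited they were 1277, 0, 838 and 0, and with arrays scaled to the same spread 5, 0, 0 and 1. With a single array kept where its partner was missing they were 9, 0, 0 and 0. Forward arrays alone gave 1614, 0, 25 and 0, and reversed arrays alone 568, 0, 383 and 1. With all 3 pairs required at each level, 46, 0, 14 and 32 were called, from fewer probes. The robust variance estimate called 13 in low calcium. Averaging the probes of a gene gave 106 shared calls, and leaving out the centring 158. For counts of 0 differences, probes at an unadjusted p under 0.05 numbered 22 to 182. Leaving out 1 pair in turn gave 50 to 156 shared calls, 0 to 2 differences, 6 to 54 low calcium calls and 30 to 186 high calcium calls. These fits tested 1916 to 4014 probes for shared effects, 2549 to 4810 for low and 2063 to 7682 for high calcium. The lowest shared count, 50 of 2300 probes tested, came without low calcium repeat 1. Without low calcium repeat 2 the shared count was 147 of 2537. The 2 differences (Serping1 and Sh3bgrl2) came without high calcium repeat 1. Where it was not stated above, the cause was not tested.

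With the range of experiment numbers as a block, 1 difference was called, Serping1, and 46 low calcium effects. Serping1 read 0.22 and 0.29 in low and -0.29, 0.26 and -3.23 in high calcium, so it rests on high calcium repeat 3. Alternatives added after seeing the data used each range alone. The first called 798 shared effects and 2 differences (Tm4sf1 and Ccdc117), the second 24 and 7, both with few residual degrees of freedom. The repeat numbers did not pair low with high calcium (correlations of deviations -0.03, -0.11 and 0.21). With the replicate block, 163 shared effects, 2 differences (Serping1 and Il33), 55 low and 105 high calcium effects were called. That fit, those without high calcium repeats 1 or 2 and that of the second range estimated 1 variance for all probes.

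Signs of single genes turned mainly with the reversed arrays kept as deposited. Shared effects then read Sprr1a 0.62, Flg 0.11, Serpinb2 0.50, Lce1m 0.32, Klk5 0.023, Cav1 0.0057, Thbs1 0.50, Gsdmc2 0.36, Sdc1 0.58, Anxa1 0.45, Itgb1 0.68, Lima1 -0.34, Aven -0.036, Herc4 -0.56, Cdkn1a 0.58, Serpinb5 0.36, Ctnna1 0.66, Cdh3 0.25, S100a6 0.49, S100a9 0.33, Tnc 0.59, Defb1 0.23, Tap1 -0.21, Krt71 0.19 and Acta1 0.82. Differences then read Klk5 0.41, Il33 0.98, Manba 0.87, Nat8l 0.73, Jcad 0.55, Hp1bp3 0.46, Zfp871 0.67, Cyp2b19 1.59, Krt32 -0.012, Rab34 -0.42, Sh3bp5l -0.43 and Defb1 0.42. On forward arrays alone the difference of Cyp2b19 read 0.60, and the shared effects of Ctnna1 and Tnc 0.17 and 0.0059. On reversed arrays alone the shared effects read Il33 0.19, Cyp2b19 0.87 and Krt34 0.27, and the difference of Spdef -0.17. Averaging its 2 probes took the difference of Zfp871 to 0.035. Over all alternatives of the 53 named probes, 598 readings of the shared effect kept direction and side of the threshold, 127 lost their call, 19 gained one, 31 moved without a call and 30 turned. For the difference 682 kept both, 105 moved, 3 gained a call and 15 turned.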

Other observations

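Some genes of the actin cytoskeleton were picked from the called shared falls after their values were seen, so they show no trend of such genes. They were Tpm2, a tropomyosin (shared effect -0.81), Actg2, an actin (-0.76), Twf1, an actin monomer binder (-0.74), Dstn, an actin severing protein (-0.71), Diaph1, a formin (-0.65), and Srf, the transcription factor of many actin genes (-0.65). Tpm2 read -1.19, -0.77 and -0.93 in low and -0.43 and -0.87 in high calcium. Dstn was below 0 in 5 of 6 pairs, with 0.17 in high calcium repeat 3, and Srf was below 0 in 4 of 5, with 0.26 in the same repeat. Their differences between calcium levels were -0.54 in Actg2, -0.27 in Twf1, -0.06 in Diaph1, 0.08 in Dstn, 0.31 in Tpm2 and 0.49 in Srf, none of them at an unadjusted p under 0.05. No list of actin genes was tested. Among other actin-binding genes Lima1 rose 2.38-fold, and 1 of the 2 Cap1 probes was not called (-0.12).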
